A study of Mus musculus with 2 samples.

Results

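The 6 microRNA genes on the plus strand of chromosome 12 that face the gene Rtl1 were described here: Mir431, Mir433, Mir127, Mir434, Mir432 and Mir136. They were picked by position and by their GENCODE M21 symbols, not by their levels, and are 6 of the 2202 microRNA genes in the count tables of the series. Earlier results of these data were known when this choice was made. The data are microRNA-seq libraries from the cerebral cortex, left side only, of B6CASTF1/J males aged 36 days, hybrids of C57BL/6J and CAST parents, and the labels give no treatment. The 2 libraries form 1 group. Replicate 1 came from the animal numbered 3 and replicate 2 from the animal numbered 4, and both carry 1 donor identifier in the labels. The labels do not otherwise say how the animals relate. The binomial and Fisher's exact p-values between the libraries cover counting error only, since these tests have no term for spread between animals. The libraries were made from RNA below 30 bases as labelled, and the tables do not separate the parental alleles.

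Rtl1 is a retrotransposon-derived gene of the imprinted Dlk1-Dio3 domain. It is expressed from the paternal allele and is best known for its part in the placenta. The opposite strand is transcribed from the maternal allele, and hairpins in that antisense RNA are cut into microRNAs. A microRNA usually represses target RNAs through its seed, but one that pairs along its whole length can direct Argonaute to cleave the target. The microRNAs antisense to Rtl1 are a textbook case of such pairing, because they are copied from the strand that faces the Rtl1 message.

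The sequences are shown first because each of them can be read against the Rtl1 message. All 6 hairpins matched a RefSeq entry (GRCm38.p6), and RefSeq gives 11 mature microRNAs for them, with both arms for each hairpin except Mir432. The mature sequences follow from 5′ to 3′, with the seed (bases 2 to 8) in capitals.
miR-431-5p: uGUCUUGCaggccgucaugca
miR-431-3p: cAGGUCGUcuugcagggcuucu
miR-433-5p: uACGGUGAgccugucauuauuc
miR-433-3p: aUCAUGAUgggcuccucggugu
miR-127-5p: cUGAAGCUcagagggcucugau
miR-127-3p: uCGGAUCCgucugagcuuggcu
miR-434-5p: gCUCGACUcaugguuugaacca
miR-434-3p: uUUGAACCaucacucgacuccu
miR-432: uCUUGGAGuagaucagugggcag
miR-136-5p: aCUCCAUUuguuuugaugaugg
miR-136-3p: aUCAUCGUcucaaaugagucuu

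No seed was shared. The 11 sequences carry 11 different seeds, and no mature microRNA of another gene among the 1738 mature entries of the RefSeq table has one of them at its own bases 2 to 8. The mature microRNAs are 21 to 23 bases long, and 5 of the 11 begin with U. The closest mature sequence of any other gene differed from each by 6 to 8 edits. What the members share is their position, not their sequence.

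Each of the 11 mature sequences had its complete complement in the Rtl1 transcript of GENCODE M21, and Rtl1 was the only protein-coding gene with that complement, among 141767 transcripts of all kinds searched. All 11 sites lie in the Rtl1 coding sequence. The sites of the most abundant hairpins are shown from the Rtl1 strand, 5′ to 3′, with the bases that face the seed in capitals.
Rtl1 site of miR-127-3p (codons 832 to 839): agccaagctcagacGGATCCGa
Rtl1 site of miR-127-5p (codons 843 to 850): atcagagccctctgAGCTTCAg
Rtl1 site of miR-433-3p (codons 1201 to 1208): acaccgaggagcccATCATGAt
Rtl1 site of miR-433-5p (codons 1218 to 1225): gaataatgacaggcTCACCGTa

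The hairpins lie in a stretch of 4942 bases (mm10, chr12:109590447-109595388). All 6 fall wholly within the coding part of the large Rtl1 exon, on the other strand, and no other annotated gene overlaps them on their own strand. Along the plus strand Mir431 comes first (chr12:109590447-109590537, opposite Rtl1 codons 1623 to 1653 of 1744). Mir433 lies at chr12:109591715-109591838, opposite codons 1189 to 1230, and Mir127 at chr12:109592846-109592915, opposite codons 830 to 853. Mir434 lies at chr12:109594506-109594599, opposite codons 269 to 300. Mir432 follows 356 bases further on, at chr12:109594956-109595030, opposite codons 125 to 150. Mir136 is last, at chr12:109595327-109595388, opposite codons 6 to 26. A further annotated microRNA gene, Mir3071, lies across from Mir136 on the Rtl1 strand (chr12:109595318-109595397). The long RNA gene Rian starts 8551 bases beyond Mir136.

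**Figure D1:**
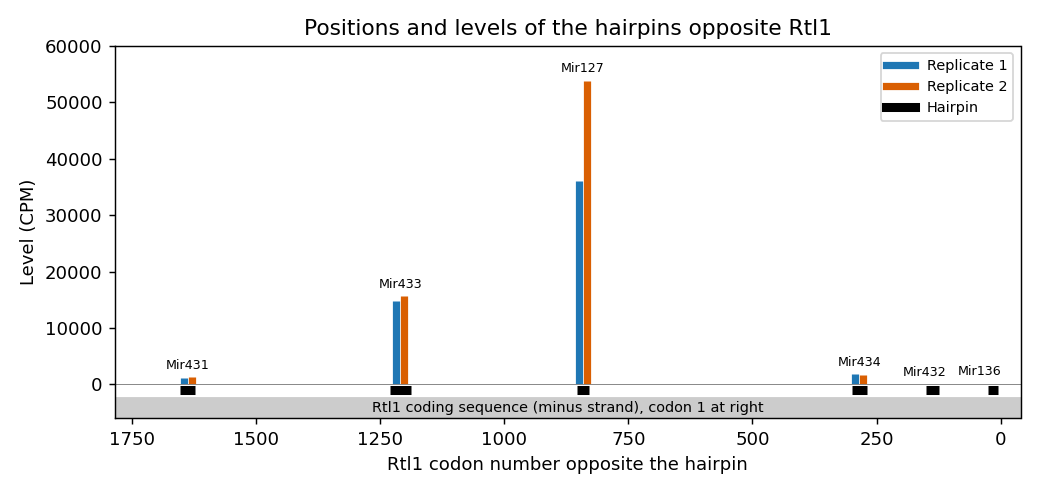
CPM of each hairpin in both libraries (vertical axis, linear from 0) against the Rtl1 codons that it faces (horizontal axis, codon 1 at right, so that the plus strand reads from left to right). Black blocks mark the hairpins; Mir127, opposite codons 830 to 853, stood highest at 36025 and 53813 CPM, and Mir432 and Mir136 do not rise visibly above 0 on this scale.

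The hairpins differ in length and fold. Mir433 is the longest at 124 bases and Mir136 the shortest at 62, and the GC content runs from 40.3% in Mir136 to 60.4% in Mir431. The folding energy computed from the sequence was -0.501 kcal/mol per base for Mir127, and 15.7% of the 1005 RefSeq mouse hairpins folded more stably by this measure. Mir432 folded least stably of the 6, at -0.316 kcal/mol per base, with 83.9% of hairpins more stable. The values were -0.477 for Mir431, -0.455 for Mir136, -0.398 for Mir434 and -0.361 kcal/mol per base for Mir433. No run of 22 bases in any of the 6 hairpins recurs at another annotated microRNA gene, whereas 1032 of all 2202 genes have such a run.

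The tables count reads per hairpin, so the arms cannot be told apart. Levels are given in CPM, the reads on a gene's own strand per 1000000 such reads at all microRNA genes. A read spans a whole mature microRNA, so reads were not divided by hairpin length. The own-strand reads came to 4273791 in replicate 1 and 4010274 in replicate 2, which were 36.0% and 34.8% of all reads, and multi-mapped reads, which no gene received, were 42.8% and 39.9%. Marker lists for cell types of the cortex and of other tissues stood at unequal levels in the libraries. The neuronal list (7 genes, 4 of them at 10 CPM or more in both libraries, Mir124a-2 at 0) summed to 79090.4 and 48396 CPM in replicates 1 and 2. The oligodendrocyte list (2 of 3 genes) summed to 5098 and 3543 CPM, the red-cell list (2 of 3 genes) to 83.5 and 794 CPM, and the epithelial list (3 of 5 genes) to 138 and 386 CPM. The endothelial list (1 of 2 genes, Mir126b at 0) summed to 11394 and 10799 CPM and the mural list (2 of 2) to 5178 and 7691 CPM. Of the 5 genes of the leukocyte list 4 were found by symbol, 3 of them at 10 CPM or more in both libraries. Those found summed to 2188 and 2026 CPM. The choroid plexus list (1 of 2) summed to 458 and 391 CPM and the striated muscle list (1 of 8, Mir1a-1 and Mir133a-2 at 0) to 80.5 and 29.9 CPM. Mir124a-2, Mir1a-1 and Mir133a-2 each share a run of 22 bases with another annotated microRNA locus, and multi-mapped reads reach no gene. A 0 at these genes therefore does not show absence, and the sums leave such reads out. The part of the marker lists in the differences between the libraries given below was not tested. In tissue, fewer cells of a type and less RNA per cell cannot be told apart.

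Together the 6 genes held 230440 reads in replicate 1 and 290734 in replicate 2. That was 5.39% of the assigned reads in replicate 1 (exact 95% binomial interval of the level 53705 to 54134 CPM) and 7.25% in replicate 2 (72244 to 72752 CPM), or 6.32% ± 1.31 (SD, n = 2). Nearly all of it came from Mir127 and Mir433.

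Mir127, whose 3′ arm is known as a repressor of Bcl6, had 153963 reads in replicate 1 and 215804 in replicate 2, which is 36025 and 53813 CPM, or 44919 ± 12578 CPM (SD, n = 2). It ranked 6 and 5 among the 2202 genes in replicates 1 and 2, and first by mean level among the 55 plus-strand microRNA genes of the domain. It was the highest member in both libraries, with the larger value in replicate 2.

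Mir433, reported to repress Fgf20 in the nervous system, had 63165 and 62792 reads in replicates 1 and 2, which is 14779.6 and 15658 CPM, or 15219 ± 621 CPM (SD, n = 2). It ranked 13 and 12 among the 2202 genes and second in the domain. The libraries lay close together for this gene.

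Mir434 had 7821 and 6747 reads, or 1756 ± 104 CPM (SD, n = 2), at 1829.99 and 1682 CPM in replicates 1 and 2. Mir431, reported to target Kremen1 in sensory neurons, had 4900 and 5010 reads, or 1198 ± 72.7 CPM (SD, n = 2), at 1147 and 1249 CPM. In the domain they ranked 14 and 17 of 55. Both stood above 1000 CPM in each library, a level that 86 of all 2202 genes reached in both.

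Mir136 was the lowest of the detected members. It had 591 reads in replicate 1 and 381 in replicate 2, which is 138 and 95.01 CPM, or 117 ± 30.6 CPM (SD, n = 2), and it ranked 39 of 55 in the domain. Among all 2202 genes it ranked 184 and 206 in replicates 1 and 2, and the median over the 782 genes with any reads was 4.11 CPM. Mir432 had 0 reads in both libraries, which allows at most 0.702 CPM in replicate 1 and 0.748 CPM in replicate 2 (3 reads of the total, counting error only). Mir432 was thus not detectable at this depth, although its neighbours on each side were.

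**Figure D2:**
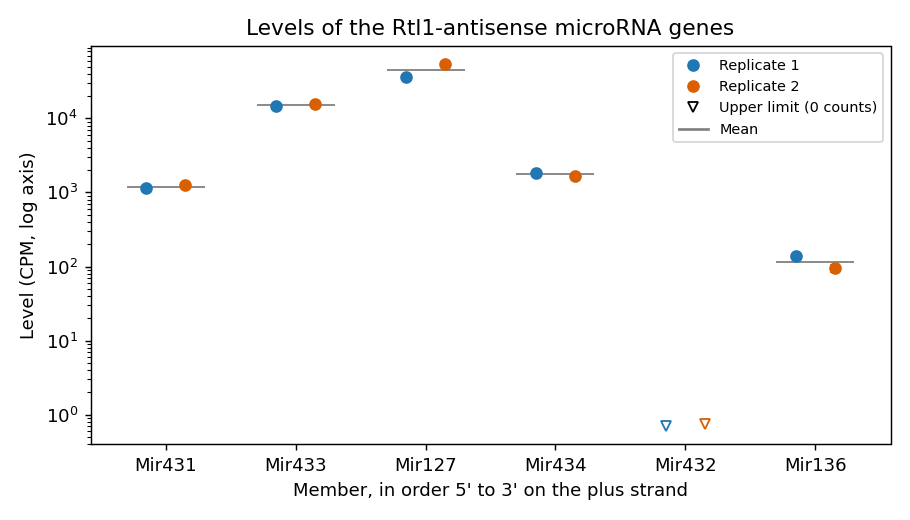
CPM (log axis) of the 6 genes in each library, with a line for the mean of both; error bars are exact 95% binomial intervals and mostly smaller than the points. Open triangles give the limit that 0 reads of Mir432 allow, 0.702 and 0.748 CPM, against 36025 and 53813 CPM for Mir127.

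The order of the levels, Mir127, Mir433, Mir434, Mir431, Mir136 and Mir432, was the same in both libraries. The ranges of no adjacent pair in this order overlapped, although 2 libraries give a narrow view of the spread. Mir127 stood 2.44-fold above Mir433 in replicate 1 and 3.44-fold in replicate 2, and Mir433 stood 8.08-fold and 9.31-fold above Mir434. Mir434 and Mir431 were the closest, at 1.60-fold and 1.35-fold. Between Mir127 and Mir136, which lie within 4942 bases of each other on one strand, the gap was 261-fold in replicate 1 and 566-fold in replicate 2. Of the reads of the group, Mir127 took 70.5% ± 5.24, Mir433 24.5% ± 4.11, Mir434 2.86% ± 0.759, Mir431 1.92% ± 0.285 and Mir136 0.194% ± 0.0887 (SD, n = 2).

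All reads at the 6 loci lay on the antisense strand. On the Rtl1 strand there were 0 reads at every one of them in both libraries, against 230440 and 290734 reads on the microRNA strand. The libraries were made from RNA below 30 bases, so these counts do not measure the Rtl1 message. A count of 0 allows at most 3 reads per library, or 0.0013% and 0.00103% of the microRNA-strand reads. This includes Mir3071, which faces Mir136 and had 0 reads of its own. The 591 and 381 reads of Mir136 stand at Mir3071 only as opposite-strand reads. Without regard to strand they fit both genes and are counted for neither. Mir136 thus had 0 unstranded reads in both libraries, while the other members kept the same number. Over all microRNA genes, 3970613 and 3710048 reads were assigned without regard to strand in replicates 1 and 2. A further 303325 and 300389 reads fitted several genes. Together these were close to the own-strand totals of 4273791 and 4010274. Opposite-strand reads were thus few over all genes too, and their absence is not shown to be particular to the 6 loci.

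The libraries were then compared gene by gene, as replicate 2 against replicate 1 on TMM-scaled library sizes, with an exact two-sided binomial test adjusted over all 516 genes tested (Benjamini-Hochberg). Mir127 was higher in replicate 2, by 0.62 on the log2 scale (exact 95% interval 0.61 to 0.63), with an adjusted p too small to be represented as a number. Mir431 was higher by a log2 ratio of 0.16 (0.11 to 0.22, adjusted p = 4.55e-08 in the exact test). Mir433 was higher by 0.12 on the log2 scale (0.11 to 0.14, adjusted p = 2.06e-51 in the exact test). The log2 ratio of Mir136 was -0.50 (-0.69 to -0.31, adjusted p = 3.07e-07 in the exact test), so it was lower. Mir434 had a log2 ratio of -0.08 (-0.13 to -0.03, adjusted p = 0.00163 in the exact test), a call that was lost with DESeq2 size factors (log2 ratio -0.04, adjusted p = 0.103).

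Of the 5 members tested, 3 were thus called higher and 2 lower in replicate 2, with a median log2 ratio of 0.12 against -0.04 over all 516 genes tested. Mir432, with no reads, was not tested. Among the 516 genes the test called 57.9%, with 27.5% higher and 30.4% lower, and among genes with 100 or more reads together, as all 5 have, it called 81.9%. A call was thus common among deeply counted genes. No member reached an absolute log2 ratio of 1, which 18.4% of tested genes reached with a call. Among the 309 genes with 100 or more reads, 37.2% differed more between the libraries than Mir127 and 46.9% more than Mir136. For Mir431, Mir433 and Mir434 the share was 81.2%, 83.5% and 88.3%, so these 3 differed less between the libraries than most of the 309 genes. Genes with few reads carry more counting error, and no comparison at matched depth was made. When the spread between the libraries was itself taken into the test (edgeR's exact test with a common dispersion, a coefficient of variation of 43.7%), 0 of the 5 members were called, and 0 had an unadjusted p under 0.05. That dispersion could only be estimated from the same 2 libraries that the test compares, so it gives no independent measure of the spread, and this count of 0 does not show that the members were stable. Each had an adjusted p of 1, with unadjusted values from 0.4996 to 0.930, and this test called 6 of the 516 genes (1.16%), or 5.04% at an unadjusted p under 0.05.

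**Figure D3:**
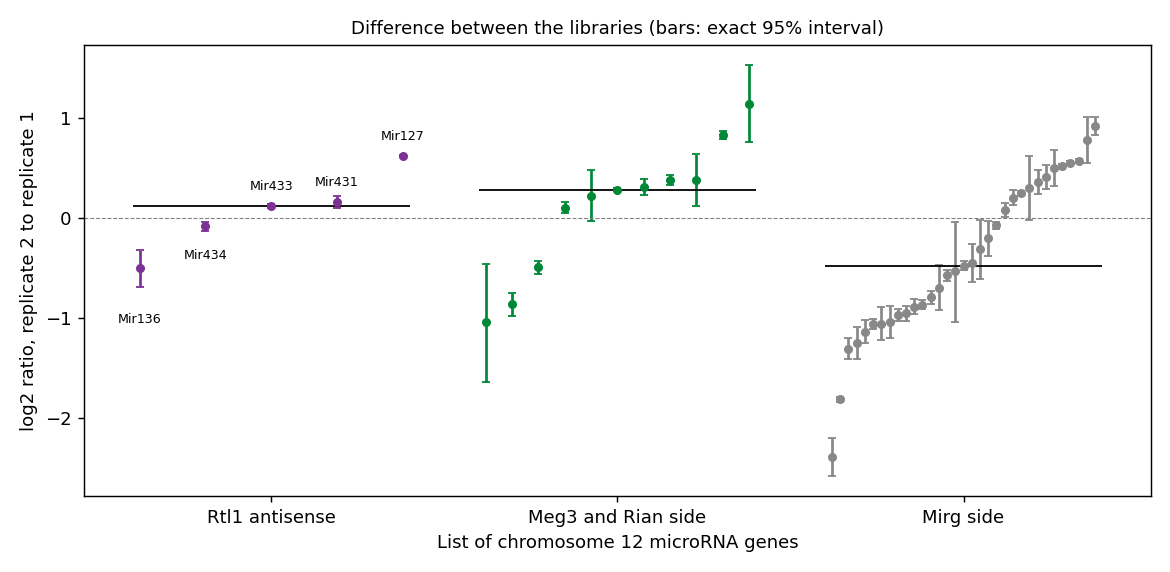
log2 ratio of replicate 2 to replicate 1 (vertical axis) for plus-strand chromosome 12 genes with 100 or more reads together, in 3 lists, sorted within each; bars are exact 95% intervals and black lines the medians. The 5 members lie between -0.50 (Mir136) and 0.62 (Mir127), while the 33 genes of the Mirg side spread from -2.38 to 0.92.

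A ratio of 2 members within a library does not depend on how the libraries are scaled. Of the 10 pairs among the 5 detected members, 9 had ratios that differed between the libraries (two-sided Fisher's exact test, adjusted over the 10 pairs). Pairs of other genes were not tested, and the binomial test of single genes called 81.9% of genes with 100 or more reads. So many called pairs are thus not shown to be particular to the members. The largest change was in Mir127 to Mir136, from 261 to 566, a log2 change of 1.12 (95% interval 0.93 to 1.31, adjusted p = 1.22e-32). Mir127 to Mir434 rose from 19.7 to 32.0, a log2 change of 0.70 (0.65 to 0.75, adjusted p = 4.1e-180). Mir433 to Mir127 stood at 0.41 in replicate 1 and 0.291 in replicate 2, a log2 change of -0.50 (-0.51 to -0.48). Beyond counting error, the members therefore did not differ between the libraries by 1 common factor. The exception was Mir431 to Mir433, at 0.0776 and 0.0798, a log2 change of 0.04 (-0.02 to 0.10, adjusted p = 0.178 in the exact test). Along the plus strand the log2 ratios ran 0.16 (Mir431), 0.12 (Mir433), 0.62 (Mir127), -0.08 (Mir434) and -0.50 (Mir136), with the largest at the middle hairpin.

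The rest of the domain gives the nearest comparison, since its plus-strand microRNAs also come from the maternal allele. Lists were the 11 plus-strand genes on the sides of Meg3 and Rian and the 38 of the cluster at Mirg. The 6 members held 39.5% of the reads of these 55 genes in replicate 1 and 47.2% in replicate 2, or 43.4% ± 5.41 (SD, n = 2). The Mirg side held 46.6% and 38.1%, and the Meg3 and Rian side 13.9% and 14.7%. In replicate 1 the Mirg side gave more reads than the members, and in replicate 2 fewer. Mir487b of the Mirg side had 51223 and 13344 reads in replicates 1 and 2. Without it the Mirg side held 220106 and 221216 reads, fewer than the members in both libraries. Leaving out Mir487b was chosen after seeing the data. No other gene was left out for this comparison, so the change of order is not shown to rest on Mir487b alone. The odds of a domain read being a member's were higher in replicate 2 by 0.45 on the log2 scale (0.44 to 0.46), with a two-sided Fisher's exact p too small to be represented as a number. Without Mir127 the other members held 17.8% and 18.7% of the domain reads left, a log2 difference of 0.09 (0.07 to 0.10, Fisher's exact p = 2.21e-25). Without Mir487b in place of Mir127 the difference was 0.28 (0.27 to 0.29), and without both it was -0.081 (-0.097 to -0.065, Fisher's exact p = 1.65e-22). The shift was thus smaller without either gene, and its direction turned when both were left out. Both alternatives without Mir487b were chosen after seeing the data.

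**Figure D4:**
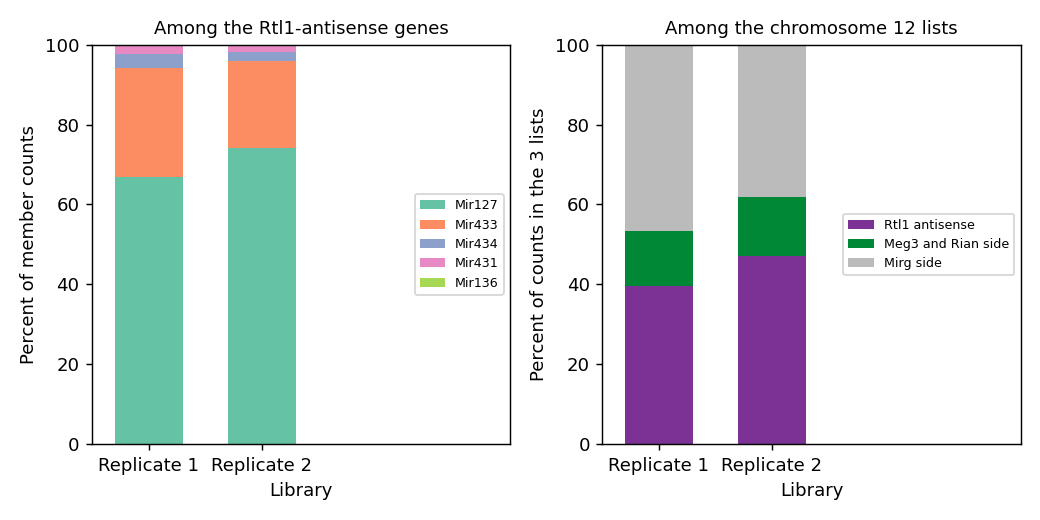
Left, percent of the members' reads taken by each member in each library; right, percent of the reads of the 55 chromosome 12 genes taken by each of the 3 lists. Mir127 took 66.8% and 74.2% of the members' reads, and the members 39.5% and 47.2% of the reads on the right.

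By gene, the median log2 ratio was 0.29 on the Meg3 and Rian side (7 of 11 genes called higher and 3 lower) and -0.52 on the Mirg side (11 of 35 tested genes called higher and 20 lower), beside 0.12 for the members. Over only the genes with 100 or more reads together, the Mirg side had a median of -0.48, and the other 2 medians were unchanged. At that depth the test called 81.9% of all genes, so calls were common outside the domain too. Each list held genes that moved in both directions. By mean CPM, Mir770 led the Meg3 and Rian side (12002 and 14252 CPM in replicates 1 and 2, log2 ratio 0.29). Next came Mir337 (log2 ratio 0.84) and Mir341 (0.38). On the Mirg side the first were Mir382 (10200.3 and 14575 CPM, log2 ratio 0.56) and Mir541 (0.57). Mir487b, also of the Mirg side, went the other way at 11985 and 3327 CPM, a log2 ratio of -1.81 (-1.84 to -1.78). Its change exceeded that of any member, and so did that of Mir337.

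For each detected member the nearest other gene was sought in the plane of log2 CPM of both libraries, over 304 genes with 100 or more reads. With 2 libraries this says only that level and ratio are alike. Mir136 lay nearest to Mir495 (134 and 95.8 CPM, a distance of 0.05), Mir431 to Mir540 (1083 and 1135 CPM, 0.16) and Mir433 to Mir770 (0.33), all 3 on chromosome 12. Mir434 lay nearest to Mirlet7c-2 (1774 and 1611 CPM, 0.08) and Mir127 to Mirlet7d (35382 and 47302 CPM, 0.19), which lie on chromosomes 15 and 13. The 304 genes include 11 of the Meg3 and Rian side and 33 of the Mirg side, all on chromosome 12. Whether chromosome 12 genes were nearest more often than their share was not tested.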

How the data were processed

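The deposited tables, 1 per library, hold raw counts of reads per microRNA gene, per the values and the file headers of the text files beside them, which name mm10 and GENCODE M21. No source used here names the aligner or the counter. The 3 count columns were read as unstranded, own-strand and opposite-strand reads, and own-strand counts were used. The 4 entries that name no gene (64.0% and 65.2% of all reads) stayed out of the main totals and tests and entered only the alternative that scales to all reads. All 2202 identifiers matched GENCODE M21, which gave positions and the Rtl1 transcript; mature and hairpin sequences are RefSeq's (GRCm38.p6).

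Genes with 10 or more counts together were tested with an exact binomial test against TMM library sizes (edgeR 4.0.16, R 4.3.3). With 1 group, no dispersion independent of the compared libraries can be had for a count model, so edgeR's exact test was an alternative only. Intervals are Clopper-Pearson (95%); those of member pairs and domain odds are normal intervals on the log scale. Hairpins were folded with RNAfold 2.7.2. Other computations used Python 3.11.15, SciPy 1.17.1, NumPy 2.4.6 and pandas 2.3.3. The test was tried on simulated counts that held counting error only. They had no further spread between libraries, so the trial does not show how the test behaves under such spread. Named genes were the members, the 3 genes of each comparison list with the highest mean CPM, the nearest gene to each member, and genes overlapping a member. The members, lists and rules were chosen with earlier results of these data known. As alternatives, size factors from DESeq2 1.42.0, total counts, all reads, totals without the most abundant gene, unstranded counts, other minimum counts and edgeR's exact test with a common dispersion were used.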

Additional observations from a re-analysis of the deposited data

Results flagged for a closer look

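Multi-mapped reads are assigned to no gene and entered only the alternative that scales to all reads. They came to 5091406 in replicate 1 and 4604314 in replicate 2, and the limit given for a count of 0 does not take them in. None of the 6 genes shares a stretch of 22 bases with another annotated microRNA locus. Whether their reads also fit places outside microRNA genes was not analysed here.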

How the results depend on the processing

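With edgeR's exact test and a common dispersion, 0 members were called higher and 0 lower, and over all genes 4 were called higher and 2 lower, against 142 and 157 in the binomial test. Members called lower fell from 2 to 1 with DESeq2 size factors (Mir434) and to 1 with unstranded counts, where Mir136 has 0 reads. With unstranded counts 5 of 6 member pairs differed, since Mir136 gives no pair. The summed level was 22296 per 1000000 of all reads, a change of denominator. Without Mir127 the members' share of domain counts was 18.3%. Without Mir127 and Mir487b, chosen after seeing the data, it was 19.8%, and the log2 odds reversed to -0.081. Each library alone gave summed levels of 53919 and 72497 CPM and domain shares of 39.5% and 47.2%. Across the settings the log2 ratio ran from 0.53 to 0.66 for Mir127, 0.08 to 0.20 for Mir431, 0.03 to 0.16 for Mir433, -0.17 to -0.04 for Mir434 and -0.59 to -0.46 for Mir136, with no sign changed. A log2 ratio between libraries needs both, so it could not be computed with either left out. No paired analysis was possible because the series holds 1 group.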

Other observations

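The arms of Mir431 and Mir434 resemble each other, a feature singled out after the sequences were seen. The mature arms of Mir431 share the stretch GUCUUGCAGG of 10 bases, and 4 of the 677 RefSeq mouse hairpins with 2 mature arms share one as long. The arms of Mir434 share UUUGAACCA, 9 bases, which 9 of the 677 hairpins match in length or exceed. The longest shared stretch was 5 bases in Mir127 and in Mir433 and 4 in Mir136.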
